A study of Mus musculus with 16 samples.

Results

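The genes described here repair DNA bases damaged by alkylation or answer that damage through the tumour suppressor p53. They were 41 genes found by symbol among the 30463 rows of the authors' deposited table, with 18 repair genes, 5 genes of checkpoint signalling, p53 with its 2 inhibitors, and 15 genes that p53 is known to switch on or that belong to the same stress response. The study measured RNA of whole liver taken at 14 weeks of age from C57BL/6N mice of wild type genotype. At 2 weeks of age the mice had been injected with vehicle or with diethylnitrosamine (DEN), a liver carcinogen, and from 6 weeks of age they were kept on control diet or given a diet labelled 60% high fat. The 16 samples made 4 groups of 4, in which mice on either diet had been given either vehicle or DEN. All mice shared the strain and genotype, and all groups were injected.

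Cytochrome P450 enzymes of hepatocytes turn DEN into a reactive species that adds ethyl groups to DNA. Some of these lesions are reversed in a single step by enzymes such as Mgmt, others are cut out as a base by base excision repair or as a short strand by nucleotide excision repair, and mispairs are handled by mismatch repair. Damage that persists activates the kinases Atm and Atr, which stabilise p53, and p53 then raises genes for growth arrest, cell death and antioxidant defence, together with its own inhibitor Mdm2.

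The values come from 1 comparison made by the authors, and their deposited table does not name its sides. A positive log2 fold change is therefore written as higher on the positive side, which is the side on which the lipid droplet gene Cidea was higher, and a value below 0 is written as the negative side being higher. No column of single libraries could be matched to a sample, so no value per mouse, no depth per sample and no group of the design can be given for any gene. The error of each fold change is the standard error (SE) in the authors' deposited table. In whole liver, fewer cells of a type and less RNA per cell cannot be told apart.

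Among the repair genes, the direct reversal gene Mgmt was higher on the positive side and the nucleotide excision gene Xpa was higher on the negative side, each by less than 2-fold. None of the 15 p53 targets was called, although their fold changes spread more widely than those of the repair genes. The adjusted p in the authors' deposited table was below 0.05 for 2 of the 41 genes (4.88%), beside 6.57% of all 16288 tested genes. By direction, 1 of 41 was called positive, where 3.67% of all tested genes were, and 1 negative, where 2.90% were. At an unadjusted p below 0.05 there were 9 of 41 (22.0%), beside 19.0% of all tested genes. Of these 9, 4 were positive and 5 negative, where 9.64% and 9.41% of all tested genes were. Both shares lie close to those of the whole table. Both calls were lost when every test statistic was divided by the spread of all statistics (adjusted p = 0.301 for Mgmt and 0.593 for Xpa). That spread was 1.44, the median absolute deviation of the statistics scaled to match a normal standard deviation. It was taken over all tested genes and can hold true differences as well as error, and the share of each was not tested.

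**Figure D1:**
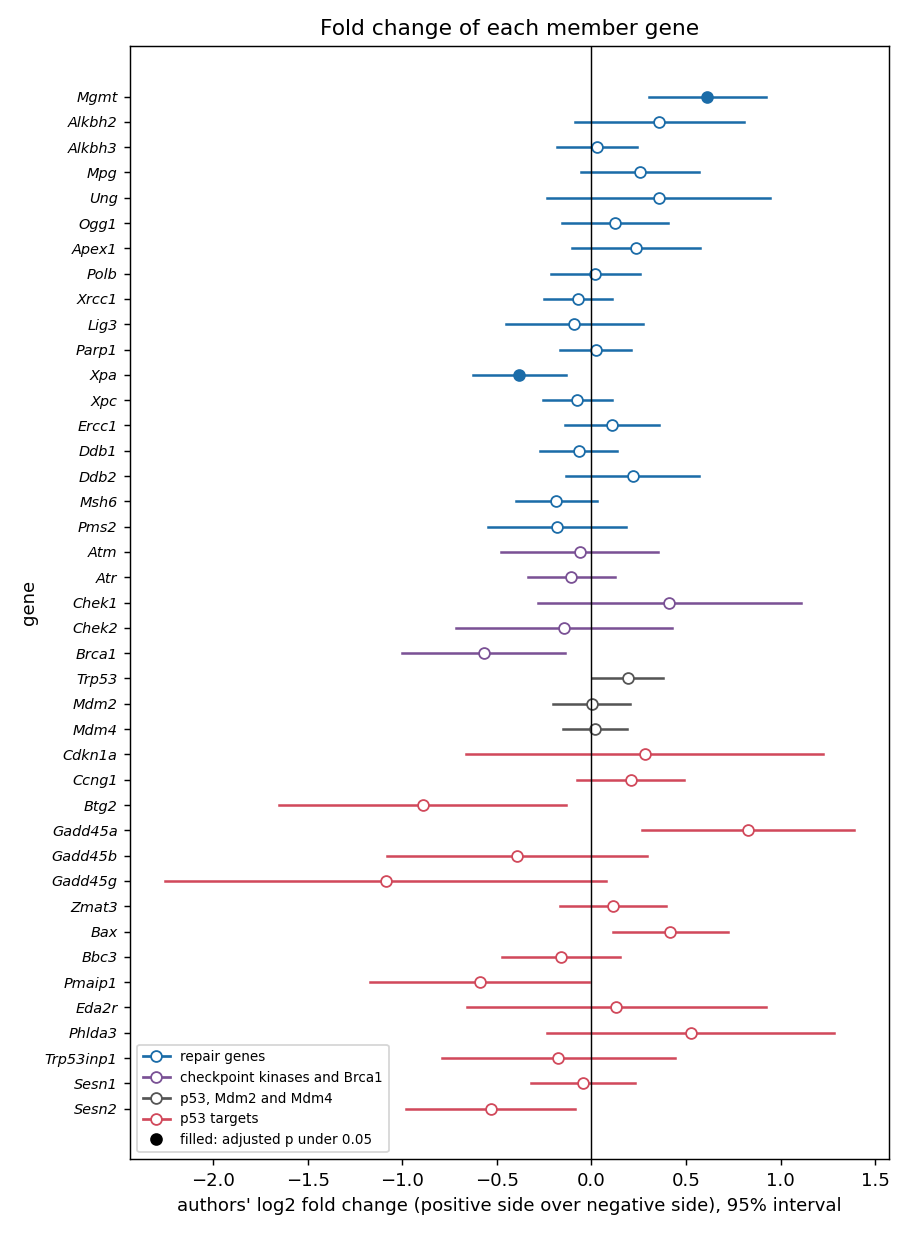
The log2 fold change of each of the 41 genes in the authors' deposited table (points) with its 95% interval (lines), coloured by group. Filled points mark Mgmt and Xpa, the 2 genes with an adjusted p below 0.05, and the intervals of most p53 targets are wider than those of the repair genes.

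Each CG pair, the dinucleotide that can be methylated in promoters, is in capitals in 2 stretches. These are the 100 bases before a RefSeq start of each of the 2 called genes, given because these genes carry the calls. Both are read 5′ to 3′ on the gene's strand from the RefSeq table for GRCm38.p6.
Mgmt chr7:136894486-136894585, plus strand: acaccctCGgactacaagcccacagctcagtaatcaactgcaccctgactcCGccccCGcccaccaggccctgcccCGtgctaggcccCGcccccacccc
Xpa chr4:46196312-46196411, minus strand: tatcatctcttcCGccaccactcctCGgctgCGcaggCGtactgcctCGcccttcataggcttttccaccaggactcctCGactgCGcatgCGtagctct
The first stretch holds 5 CG pairs and the second 8. Over windows of 300 bases (250 before to 50 after a start), the order was the other way, with 20 for Mgmt at this start and 12 for Xpa. A second RefSeq start of Mgmt had 3. In such windows the repair genes had a median of 19 CG pairs and the p53 targets of 23.5, beside 7 over all 32851 windows. Methylation was not measured.

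The p53 decamer, the 10-base element that p53 binds as a pair of copies, was searched in the same windows because p53 acts on its targets through this element. The consensus reads the same on both strands. It was found in 7 of the 41 windows of the 35 matched genes (17.1%), beside 8.36% of all windows. The 16 windows of repair genes and the 5 of checkpoint genes held 0 and 0. The decamer was found in 5 of 16 windows of p53 targets and in 2 of 4 windows of p53 and its inhibitors. Most targets were listed because p53 is known to act on them, so these counts are no independent result. Elements outside the windows were not searched, and the difference between groups was not tested. Each match is shown in capitals with 10 bases on both sides, on the strand of the gene, in GRCm38.p6 from RefSeq.
Cdkn1a chr17:29090896-29090925: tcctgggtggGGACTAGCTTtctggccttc
Cdkn1a chr17:29090918-29090947: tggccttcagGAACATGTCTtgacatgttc
Mdm2 chr10:117710925-117710954: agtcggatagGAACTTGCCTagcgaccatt
Ccng1 chr11:40755452-40755481: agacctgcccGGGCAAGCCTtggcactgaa
Gadd45a chr6:67037428-67037457: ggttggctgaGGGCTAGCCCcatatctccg
Bax chr7:45467080-45467109: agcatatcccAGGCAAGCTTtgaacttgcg
Sesn1 chr10:41887256-41887285: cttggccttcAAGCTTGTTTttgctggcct
Trp53 chr11:69580274-69580303: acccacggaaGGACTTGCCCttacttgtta
Only Cdkn1a among the searched members had 2 decamers within 13 bases of each other, an arrangement found in 24 of all 32851 windows (0.0731%). Cdkn1a and Sesn1 each also had a window at another RefSeq start, which held no match. A match describes letters and is not a measured binding site. The genes without a window in the table were Polb, Xpc, Ddb2, Zmat3, Pmaip1 and Trp53inp1.

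Direct reversal enzymes undo an alkyl adduct without cutting the DNA. Mgmt, which moves an alkyl group from the oxygen of guanine to itself and is used up in doing so, was listed at 0.61 ± 0.16 (log2 with SE, authors' deposited table). That is 1.53-fold higher on the positive side, with a 95% interval from 1.23-fold to 1.89-fold and an adjusted p of 0.00451. Mgmt (ENSMUSG00000054612) lies on the plus strand of chromosome 7 from 136894614 to 137130266 in GRCm38 and shares no exon base with another gene of the table. It ranked 377 by p among the 16288 tested genes. Alkbh2, a dioxygenase that removes small alkyl groups from double-stranded DNA, was at 0.36 ± 0.23 (log2 with SE, adjusted p = 0.407, authors' deposited table). Alkbh3, its relative that prefers single-stranded DNA and RNA, was at 0.03 ± 0.11 (log2 with SE, adjusted p = 0.920, authors' deposited table). All 3 reversal genes were positive in sign, beside 49.2% of all tested genes, though the value of Alkbh3 lay near 0. Of the 3, 1 was called, beside 6.57% of all tested genes. Of the 3 genes of the Ascc complex that works with Alkbh3, 0 were called (1 at an unadjusted p below 0.05), with a median of -0.07 (log2).

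Base excision repair showed no called gene among its 8 members, and 0 had an unadjusted p below 0.05 (6.57% and 19.0% of all tested genes). Mpg, the glycosylase that removes alkylated purines, was at 0.26 ± 0.16 (log2 with SE, adjusted p = 0.395, authors' deposited table). The uracil glycosylase gene Ung was at 0.36 ± 0.30, and Apex1, which cuts the site left without a base, at 0.24 ± 0.17 (log2 with SE, authors' deposited table). Ogg1, the glycosylase for oxidised guanine, was at 0.12 ± 0.14 (log2 with SE, authors' deposited table). The genes that fill and seal the gap lay near 0, with the polymerase gene Polb at 0.02 ± 0.12, the ligase gene Lig3 at -0.09 ± 0.18 and the scaffold gene Xrcc1 at -0.07 ± 0.09 (log2 with SE, authors' deposited table). Parp1, which senses strand breaks, was at 0.02 ± 0.10 (log2 with SE, authors' deposited table). The 4 genes that act on the damaged base or its empty site were thus between 0.12 and 0.36, and the 4 later ones between -0.09 and 0.02 (log2), a grouping made after the values were seen. For 7 of the 8 genes the 95% interval lay within 1.5-fold in either direction, and Ung was the exception with an upper bound of 1.93-fold.

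Nucleotide excision repair held the other call. Xpa, which checks the lesion before the strand is cut, was at -0.38 ± 0.13 (log2 with SE, adjusted p = 0.0407, authors' deposited table). That is 1.30-fold higher on the negative side, with the positive side at 0.648 to 0.911 times the negative side (95% interval). Xpa (ENSMUSG00000028329) lies on the minus strand of chromosome 4 from 46155347 to 46196311 in GRCm38. With p-values adjusted over every gene of the table, the adjusted p of Xpa was 0.0754. The damage sensors Xpc and Ddb1 were at -0.07 ± 0.09 and -0.07 ± 0.10, and the nuclease gene Ercc1 at 0.11 ± 0.13 (log2 with SE, authors' deposited table). Ddb2, the sensor subunit that p53 also induces, was at 0.22 ± 0.18 (log2 with SE, adjusted p = 0.560, authors' deposited table). Of the mismatch repair genes, Msh6, which recognises mispairs, was at -0.18 ± 0.11 and Pms2, the nuclease of the pathway, at -0.18 ± 0.19 (log2 with SE, authors' deposited table). Neither was called.

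The checkpoint genes were called in 0 of 5 cases, with 1 at an unadjusted p below 0.05 (6.57% and 19.0% of all tested genes). That was Brca1, a gene of repair by homologous recombination, at -0.57 ± 0.22 (log2 with SE, adjusted p = 0.0978, authors' deposited table). The kinase genes Atm and Atr were at -0.06 ± 0.21 and -0.11 ± 0.12 (log2 with SE, authors' deposited table). Their effector kinases Chek2 and Chek1 were at -0.15 ± 0.29 and 0.41 ± 0.35 (log2 with SE, authors' deposited table). Chek1 had a mean normalized count of 7.86, the lowest of the 41 genes, and its interval reached from 0.822-fold to 2.15-fold. Some cell cycle genes differed in the same comparison, with 6 of 32 called negative (beside 2.90% of all tested genes) and 0 positive. The median of the list was -0.61 (log2). The list was not uniform, with 5 of 32 positive in sign (beside 49.2% of all tested genes). Its replication genes Mcm2, Mcm3 and Pcna lay near 0. Mki67, which dividing cells express, was among the called genes, at -1.47 ± 0.37 (log2 with SE, adjusted p = 0.00303, authors' deposited table). Bub1b, a kinase gene of the spindle checkpoint, was at -1.62 ± 0.34 (log2 with SE, adjusted p = 0.000175), the mitotic motor gene Cenpe at -1.38 ± 0.38 (adjusted p = 0.00982) and the cyclin gene Ccnb2 at -1.57 ± 0.45 (adjusted p = 0.0150, all from the authors' deposited table). The part of dividing cells in the value of Brca1 was not tested.

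Trp53, Mdm2 and Mdm4 had narrow intervals around small values. Trp53, the gene of p53 itself, was at 0.19 ± 0.10 (log2 with SE, adjusted p = 0.248, authors' deposited table), with an unadjusted p of 0.0446. Mdm2, the ubiquitin ligase that removes p53 and is at the same time its target, was at 0.00 ± 0.10 (log2 with SE, adjusted p = 0.997, authors' deposited table). The interval of Mdm2 ran from 0.870-fold to 1.15-fold. Mdm4, which blocks the activating part of p53, was at 0.02 ± 0.09 (log2 with SE, authors' deposited table). Much of p53 control acts on the protein, which RNA sequencing does not measure.

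The p53 targets of growth arrest pointed both ways. Cdkn1a, the inhibitor of cyclin-dependent kinases also called p21, was at 0.28 ± 0.48 (log2 with SE, adjusted p = 0.821, authors' deposited table). Its 95% interval reached from 0.632-fold to 2.34-fold, which includes a difference as large as that of Mgmt in either direction. Ccng1, a cyclin induced by p53, was at 0.21 ± 0.15, and Zmat3, an RNA-binding target, at 0.12 ± 0.14 (log2 with SE, authors' deposited table). Btg2, an antiproliferative gene that also reacts early to growth signals, was at -0.89 ± 0.39 (log2 with SE, adjusted p = 0.160, authors' deposited table). The 3 Gadd45 genes, which encode related small stress proteins, had unlike values. Gadd45a was at 0.83 ± 0.29 (log2 with SE, adjusted p = 0.0543), Gadd45b at -0.39 ± 0.35 (adjusted p = 0.603) and Gadd45g at -1.09 ± 0.60 (adjusted p = 0.309, all from the authors' deposited table). Among the 41 genes, Gadd45a had the highest and Gadd45g the lowest log2 fold change, neither was called, and the difference between them was not tested. Gadd45a passed, with an adjusted p of 0.0475, when genes of mean normalized counts below 10 were left out of the adjustment.

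The cell death genes were no more uniform, with 3 of 6 positive in sign and 0 called (49.2% and 6.57% of all tested genes). Bax, which opens the mitochondrial outer membrane, was at 0.42 ± 0.16 (log2 with SE, adjusted p = 0.0850, authors' deposited table). The genes of BH3-only proteins that act upstream of it were on the other side of 0, with Pmaip1 (Noxa) at -0.59 ± 0.29 and Bbc3 (Puma) at -0.16 ± 0.16 (log2 with SE, authors' deposited table). Phlda3, which restrains Akt at the membrane, was at 0.53 ± 0.39, the receptor gene Eda2r at 0.13 ± 0.40 and the nuclear protein gene Trp53inp1 at -0.18 ± 0.31 (log2 with SE, authors' deposited table). Sestrins dampen oxidative stress and mTORC1. Sesn2, which also answers nutrient stress, was at -0.53 ± 0.23 (log2 with SE, adjusted p = 0.154) and Sesn1 at -0.05 ± 0.14 (adjusted p = 0.909, all from the authors' deposited table). At an unadjusted p below 0.05 stood 5 of the 15 targets, 2 positive (Gadd45a and Bax) and 3 negative (Btg2, Pmaip1 and Sesn2), beside 19.0% of all tested genes (9.64% of all positive and 9.41% negative).

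Set side by side, repair genes and p53 targets had nearly the same centre and a different width. The median log2 fold change was 0.03 for the repair genes and -0.05 for the targets, beside -0.0044 for all tested genes. The difference of those medians, 0.07, changed sign when Gadd45b and Gadd45g were left out (-0.09) or when a mean weighted by precision was used (-0.02). In sign, 11 of 18 repair genes and 7 of 15 targets were positive, beside 49.2% of all tested genes. The median absolute log2 fold change was 0.15 for the repair genes, 0.39 for the targets and 0.18 for all tested genes. An absolute log2 fold change above 0.5 was seen in 1 of 18 repair genes, which was Mgmt, and in 6 of 15 targets, beside 14.7% of all tested genes. Called were 2 of 18 repair genes and 0 of 15 targets, beside 6.57% of all tested genes, and with lists this short neither count is far from that share. These are descriptions of 2 lists, and their difference was not tested.

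**Figure D2:**
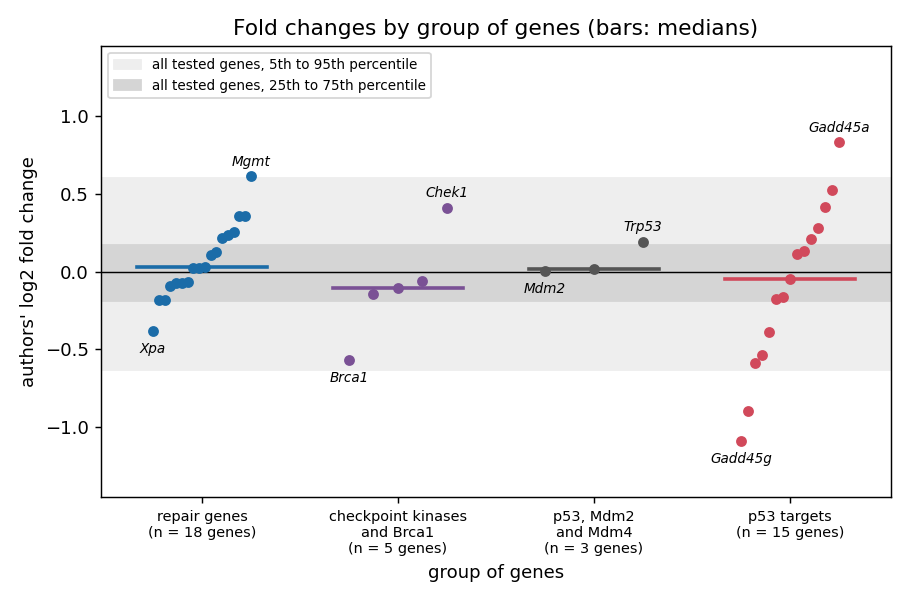
Log2 fold changes in the authors' deposited table by group of genes, 1 point per gene, with the median of each group as a bar and the percentiles of all tested genes as grey bands. Repair genes reach from -0.38 (Xpa) to 0.61 (Mgmt) and p53 targets from -1.09 (Gadd45g) to 0.83 (Gadd45a).

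The wider spread of the targets went with larger standard errors. The median SE of the log2 fold change was 0.13 for the repair genes and 0.29 for the targets. Relative to the SE the targets still spread more widely. The median absolute test statistic, the fold change over its SE, was 1.36 for targets, 0.93 for repair genes and 0.97 for all tested genes. This difference was not tested. For mean normalized counts from 100 to below 1000, the median SE was 0.11 for 10 repair genes, 0.16 for 7 targets and 0.12 for all 6846 tested genes of that range. Between 10 and 100 it was 0.17 for 7 repair genes, 0.35 for 5 targets and 0.27 for all 4216 tested genes. From 1000 upwards, the 3 targets Cdkn1a, Trp53inp1 and Ccng1 had a median SE of 0.31, while Ddb1 had 0.10 and all 2469 tested genes a median of 0.12. The mean normalized count of Cdkn1a was 2173. The 95% interval lay within 1.5-fold in either direction for 14 of 18 repair genes and for 4 of 15 targets, beside 51.3% of all tested genes. Within 2-fold lay the intervals of 18 of 18 and 8 of 15, beside 75.2%. The spread between mice behind these errors is not shown, since the libraries are without labels.

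**Figure D3:**
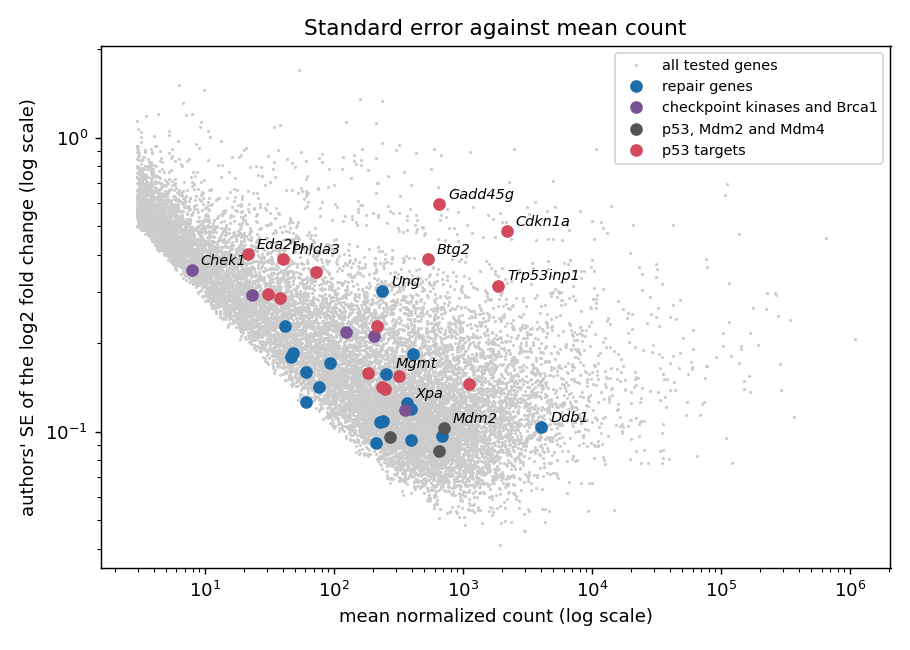
The SE of the log2 fold change against the mean normalized count, both from the authors' deposited table and both on log axes, for all tested genes (grey) and the 41 genes (coloured by group). Cdkn1a, Gadd45g, Btg2 and Trp53inp1 lie above most genes of similar count, while Ddb1, Mdm2 and Xpa lie within the main cloud.

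Levels can be compared between genes as the mean normalized count per kb of exon, a pooled value over the authors' libraries. The level was highest for Ddb1 at 627 per kb, an adaptor of a ubiquitin ligase with many roles besides repair, and for Cdkn1a at 611 per kb. These top 2 changed order when the longest transcript was used as the length (901 and 1045 per kb). Gadd45g followed at 556 and Ccng1 at 317 per kb. Mgmt stood at 87.5 and Xpa at 193 per kb, beside a median of 38.2 per kb over all tested genes. The levels of Trp53 and Mdm2 were 67.5 and 139 per kb, those of Atm and Atr 19.6 and 15.0 per kb. Atm and Atr also changed order with the longest transcript as the length (20.7 and 43.7 per kb). At the low end were Pms2 at 5.92, the receptor gene Eda2r at 3.64 and Chek1 at 1.70 per kb. The median was 55.8 per kb for repair genes, 62.5 for targets and 14.5 for the checkpoint genes. The spread of these levels over samples was not computed, because the columns of single libraries are without labels and were not used, so whether neighbours in the order differ was not tested.

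**Figure D4:**
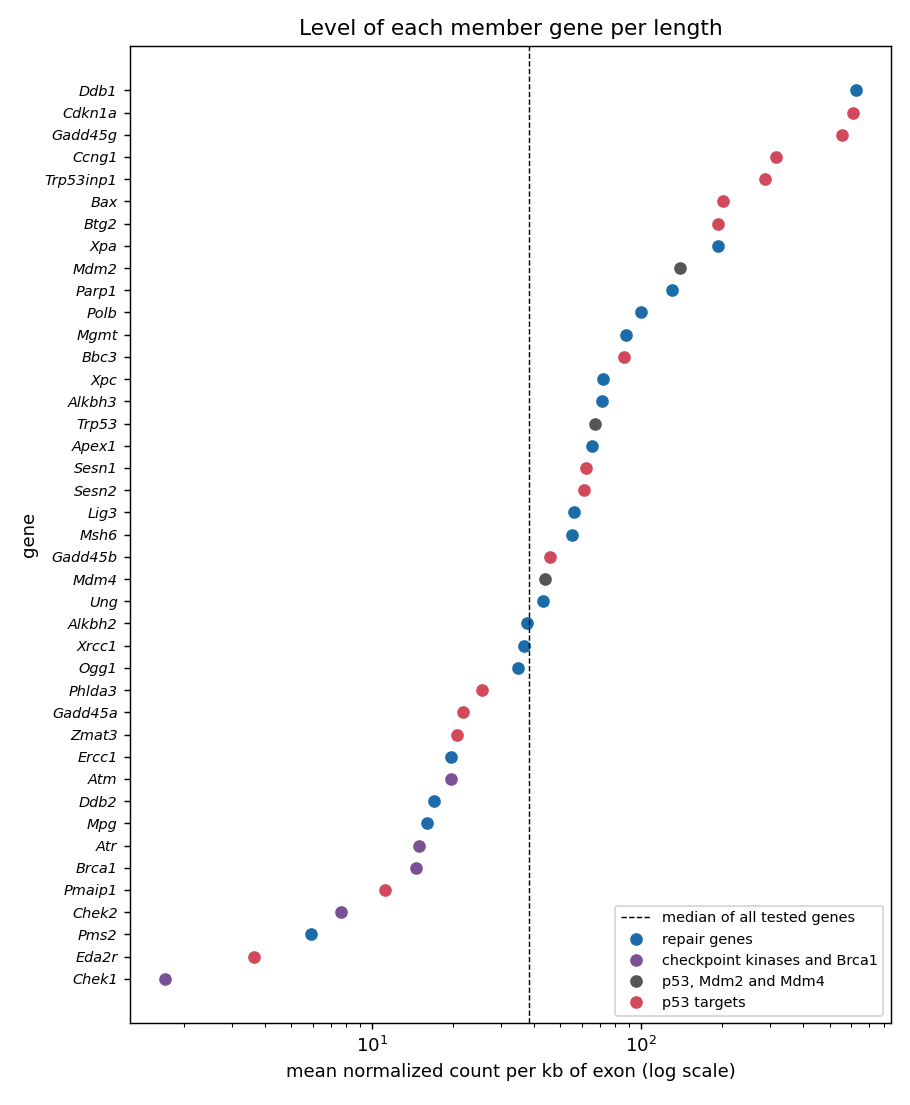
Mean normalized count per kb of exon for each of the 41 genes on a log axis, ordered by level and coloured by group, with the median of all tested genes as a dashed line. Ddb1, Cdkn1a and Gadd45g lie at the top, and the checkpoint genes lie in the lower part of the order.

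Other genes of the same pathways were taken from lists that were chosen with earlier results of these data known. In base excision and strand break repair, 1 of 19 further tested genes was called (5.26%, beside 6.57% of all tested genes). The called gene was the mono-ADP-ribosyltransferase gene Parp3 at 0.47 ± 0.15 (log2 with SE, adjusted p = 0.0240, authors' deposited table). In nucleotide excision repair 1 of 22 was called (4.55%), the TFIIH subunit gene Gtf2h5 at 0.42 ± 0.12 (log2 with SE, adjusted p = 0.00937, authors' deposited table). Mismatch repair had 0 of 6 called and 0 at an unadjusted p below 0.05. The medians of these 3 lists were 0.04, 0.05 and -0.06 (log2). Of 38 genes of double strand break repair and checkpoints, 1 was called positive and 2 negative, with a median of -0.05. Of all tested genes 3.67% were called positive and 2.90% negative. Brca2, which acts in homologous recombination, was at -0.70 ± 0.17 (log2 with SE, adjusted p = 0.00243) and Fancd2, of the Fanconi anaemia pathway, at -1.58 ± 0.46 (adjusted p = 0.0162, all from the authors' deposited table). Xrcc3, another recombination gene, was at 0.46 ± 0.15 (log2 with SE, adjusted p = 0.0373, authors' deposited table). The mean normalized count of Fancd2 was 6.22.

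Of 37 tested p53 targets outside the 41 genes, 6 were called positive and 3 negative (24.3%). Of all tested genes 3.67% were called positive and 2.90% negative (6.57%), and of the 15 targets above 0 were called. The list was chosen with earlier results of these data known, and the difference between these shares was not tested. The median of the 37 was 0.04 (log2), and 20 of 37 were positive in sign. The 4 with the smallest p were Gls2, Ddit4, Tnfrsf10b and Triap1. Gls2, a liver glutaminase, was at -0.91 ± 0.15 (log2 with SE, adjusted p = 5.9e-07) and Ddit4, an inhibitor of mTORC1 that also reacts to hypoxia and glucocorticoids, at -1.66 ± 0.45 (adjusted p = 0.00804, all from the authors' deposited table). Tnfrsf10b, a death receptor gene of low abundance (mean normalized count 12.4), was at 1.33 ± 0.38 (log2 with SE, adjusted p = 0.0143), and Triap1, a small survival factor, at 0.38 ± 0.11 (adjusted p = 0.0144, all from the authors' deposited table). The other called genes were Fas, Plk2, Prkab2 and Aen on the positive side and Prkab1 on the negative side. Many of these genes have regulators other than p53. Of 9 further regulators of p53, 1 was called (11.1%, beside 6.57% of all tested genes). The called regulator was the acetyltransferase gene Ep300 at -0.41 ± 0.12 (log2 with SE, adjusted p = 0.0180, authors' deposited table).

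Hepatocyte markers were the most abundant of the marker lists, with a mean normalized count of 1079860 for Alb. Of 9 tested hepatocyte markers 2 were called negative and 0 positive, beside 2.90% and 3.67% of all tested genes, with a median of -0.28 (log2). The called ones were Cps1, an enzyme of the urea cycle, at -0.93 ± 0.15 (log2 with SE, adjusted p = 2.88e-07) and Ahsg, a secreted plasma protein gene, at -0.64 ± 0.14 (adjusted p = 0.000367, all from the authors' deposited table). All 8 Kupffer cell markers, all 8 sinusoidal endothelial markers, all 7 T and NK cell markers and all 6 neutrophil markers were negative in sign, with medians of -0.63, -0.41, -0.67 and -1.81 (log2). Timd4 of Kupffer cells, at -0.76 ± 0.26 (log2 with SE, adjusted p = 0.0494, authors' deposited table), was the 1 called gene of these 4 lists. Of all tested genes 2.90% were called negative. In the same order of lists, 6, 2, 3 and 1 genes had an unadjusted p below 0.05, all negative, beside 9.41% of all tested genes. All 6 cholangiocyte markers were positive in sign (median 0.39) and 0 were called, with 0 at an unadjusted p below 0.05. The 8 stellate cell markers (3 positive in sign, median -0.07) and the 4 B cell markers (2 positive, median -0.08) were mixed in sign. Of these 2 lists 0 were called, and 0 had an unadjusted p below 0.05. No marker in the table was listed at 0. The part of these cells in the values of the 41 genes was not tested.

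Reads of overlapping genes could affect some values, since the library kit is stranded but the sources used here do not say if strand was used in counting. Of the 41 genes, 14 share exon bases with a gene on the opposite strand. Xpa shares 77 bases with Ncbp1, a cap-binding protein gene at 0.02 ± 0.10 (log2 with SE, authors' deposited table). Mpg shares 1340 bases with Nprl3, which was at 0.23 ± 0.09, close to the 0.26 of Mpg itself (log2 with SE, authors' deposited table). Other long overlaps had unlike values. Lig3 (-0.09) shares 1826 bases with Rffl at 0.06 ± 0.09, and Apex1 (0.24) shares 877 bases with Pip4p1 at 0.02 ± 0.10. Ddb2 (0.22) shares 652 bases with Acp2 at -0.11 ± 0.12 (log2 with SE, authors' deposited table). The part of overlaps in the values was not tested. Ddb1 shares 328 bases with Tkfc, which was at 0.62 ± 0.26, and Msh6 shares 34 bases with Fbxo11 at -0.26 ± 0.07 (log2 with SE, authors' deposited table). Gadd45a shares 337 bases with the noncoding gene E230016M11Rik, at 0.66 ± 0.40 (log2 with SE, authors' deposited table). Alkbh2 and Ung, both at 0.36 in log2 fold change, lie side by side on chromosome 5, Alkbh2 from 114123926 to 114128218 on the minus strand and Ung from 114130386 to 114139323 on the plus strand in GRCm38.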

How the data were processed

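Liver RNA of 16 mice in 4 groups of 4 was extracted with Trizol and made into stranded mRNA libraries, according to the protocols in the labels. The submitters' processing notes name FastQC, Trimmomatic, HISAT2, HTSeq 0.11.1 and GRCm38 without role, order or strand setting. Per the file headers, the deposited table lists for each gene a mean normalized count, which is a signal averaged by the authors, their log2 fold change with its SE, a test statistic (a score), a p-value and an adjusted p-value. By its headers the authors' table has the layout of DESeq2 output, and the sources used here give neither the model nor its samples and sides. The 16 columns of single libraries match no label and were not used, so no own test, depth per sample or paired fit was made. Checked on the values, the statistic is the fold change over its SE, and the adjusted p is that of Benjamini and Hochberg over 16288 genes, whose mean normalized counts start at 2.95.

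Calls were made where the adjusted p was below 0.05. Intervals are 95% normal intervals from the authors' SE. Lengths and positions are from GENCODE M21 on GRCm38 (99.7% of gene identifiers matched), and promoter sequences from RefSeq on GRCm38.p6. Of 231 symbols in the other lists, 229 were in the table. Every one of the 41 genes is reported, and of each other list at most 4 called genes by smallest p with full values; overlapping genes, and genes named without values, were added after their values were seen. The members and lists were chosen with earlier results of these data known. Alternatives were other thresholds, adjustments, count minimums, a scaled statistic, other summaries and other gene lengths. The code of the adjustment was tested on simulated data with errors drawn from the authors' SE, which cannot test whether those SE are right. Python 3.11.15, numpy 2.4.6, pandas 2.3.3 and scipy 1.17.1 were used.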

Additional observations from a re-analysis of the deposited data

How the results depend on the processing

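The number of called genes among the 41 was 2 as reported, and 5 at an adjusted p below 0.1. These 5 were 3 positive and 2 negative, adding Gadd45a, Bax and Brca1, so 2 p53 targets and 1 checkpoint gene. Of all tested genes 6.57% and 9.75% were called at these 2 thresholds. The number of called members was 1 at a threshold of 0.01 and 1 with adjustment over every gene of the table (1 positive, 0 negative, 1 repair gene, in both cases Mgmt). In these settings 3.01% and 2.52% of all genes in the adjustment were called. The number of called members was 0 with Bonferroni adjustment and 0 with the scaled statistic (0 positive, 0 negative, 0 repair genes), where 1.14% and 0.872% of all tested genes were called. Restricting the test to mean normalized counts from 10 upwards added Gadd45a (2 positive, 1 p53 target), where 7.94% of all genes in that range were called. From 100 upwards 27 of the 41 genes were tested and Mgmt and Xpa were called, beside 9.09% of all genes in that range. The adjusted p of Mgmt ranged from 0.00348 to 1 and that of Xpa from 0.0324 to 1 over these settings.

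The median log2 fold change of the repair genes lay between -0.07 and 0.03 and that of the p53 targets between -0.10 and 0.12, and their difference between -0.09 and 0.07. With standard errors multiplied by 1.44, a setting chosen after seeing the data, 15 of the 41 intervals lay within 1.5-fold in place of 23, 9 of the repair genes in place of 14, and 2 of the p53 targets in place of 4. With the longest transcript as length, also chosen after seeing the data, Ddb1 was at 901 and Cdkn1a at 1045 mean normalized counts per kb. No paired analysis was possible because the columns of single libraries carry no replicate number of the labels, and for the same reason no replicate could be left out. The sides of the comparison and the spread between mice limit every value here.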
